A study of Mus musculus with 8 samples.

Results

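The 52 genes described here act in the endoplasmic reticulum (ER) and at its exit. They are the components of the protein translocation channel and signal peptidase, the ER chaperones and disulfide isomerases, the sensors and transcription factors of the unfolded protein response, factors of ER-associated degradation, and the coat of vesicles that leave the ER. The genes were chosen by symbol for their roles, with earlier results of these data known, and all 52 of the 53170 named genes of the table were found. Bulk RNA sequencing had been done on 8 libraries of mouse organoids, which were started from hindstomach (glandular stomach) epithelium at embryonic day 18.5 and kept for 5 days in growth medium. The 4 YAP5SA libraries carried Shh-Cre together with the YAP5SA transgene, and the 4 control libraries carried Shh-Cre alone, so that the Cre recombinase, expressed from Shh in foregut epithelium, was common to both groups. YAP5SA is a form of the transcriptional coactivator YAP in which serines phosphorylated by the Hippo kinases are replaced by alanine. Whether a group's libraries came from separate embryos, pooled embryos or separate cultures is not in the labels, so p-values measure only the spread between libraries, and that spread may be technical.

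Proteins destined for secretion or for membranes enter the ER through the Sec61 channel, lose their signal peptide, are folded by chaperones and disulfide isomerases, and leave in COPII vesicles. When unfolded proteins accumulate, the sensors IRE1, ATF6 and PERK raise the production of chaperones and of the degradation machinery. In the stomach this machinery serves chief cells, which release zymogens, and mucous cells, which release heavily glycosylated mucins.

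Total counts per library were between 13672268 and 19710648. Epithelial markers were abundant in both groups, with a sum over Epcam, Cdh1, Krt8, Krt18 and Krt19 of 6147 to 6405 CPM in YAP5SA organoids and 7452 to 7977 CPM in control organoids, where CPM are counts scaled to a common library size with TMM factors. Of these, Epcam rose 1.32-fold, Krt8, Cdh1 and Krt19 fell 1.66-fold, 1.33-fold and 1.18-fold, and Krt18 was not called. Most markers of chief and mucous cells moved with genotype. Of 10 tested genes of that list of 11, 9 fell and none rose, and their sum was 8.66 to 13.1 CPM in YAP5SA organoids against 1824 to 2578 CPM in controls. The highest control levels in this sum were those of Cym (880 CPM) and Pgc (586 CPM). Tff2 fell least of the 9, by 2.03-fold. Muc5ac was not called, with 1.38 ± 0.50 CPM in YAP5SA and 0.72 ± 0.50 CPM in control organoids (SD, n = 4 each). Lipf, with 0 counts in YAP5SA libraries, was too low to test. Mesenchymal markers summed to at most 1.35 CPM in YAP5SA and 4.04 CPM in control libraries, and neural markers to at most 1.83 CPM in YAP5SA and 2.82 CPM in control libraries. Immune markers summed to 9.19 to 10.4 CPM in YAP5SA and 18.8 to 38.2 CPM in control libraries, and endothelial markers to 0.064 to 0.84 CPM in YAP5SA and 6.50 to 13.7 CPM in control libraries, mainly from Cd68 and Tek. Of the 2 immune markers tested, Cd68 fell, with 7.88 ± 1.1 CPM in YAP5SA and 28.6 ± 7.97 CPM in control organoids, and Csf1r rose, with 1.49 ± 0.60 CPM in YAP5SA and 0.19 ± 0.07 CPM in control organoids (SD, n = 4 each). Sex coincided with genotype, since Xist was at 0.41 to 2.76 CPM in YAP5SA libraries and 676 to 1049 CPM in controls, while Y-linked Ddx3y was at 68.2 to 75.6 CPM in YAP5SA libraries and at most 0.32 CPM in controls. Genotype and sex cannot be told apart in any comparison of these libraries. Yap1 was at 150 to 157.4 CPM in YAP5SA and 152 to 169.2 CPM in control libraries. Whether reads of the transgene are counted under Yap1 is not in the labels, so this level does not check the transgene.

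The comparison asked which genes of ER folding and secretion differ between YAP5SA and control organoids. Most members differed by less than 1.5-fold, while a few members with a narrow tissue distribution were nearly absent from YAP5SA organoids. Sec16b, Agr2, Ern2 and Creb3l4 fell by 10-fold or more, and Ern1 and Creb3l1, relatives of Ern2 and Creb3l4, rose by 1.55-fold and 1.96-fold. Of 51 tested members, 6 rose, 19 fell and 26 did not reach an adjusted p under 0.05 (edgeR's quasi-likelihood fit, with Benjamini-Hochberg adjusted values over 14058 genes). Among all tested genes, 23.6% were called higher and 25.5% lower in YAP5SA, 49.1% in all, and the members' 25 calls came to 49%, a share near this background. Changes of at least 1.5-fold were found in 8 members (15.7%), 2 higher and 6 lower, where 22.5% of all tested genes were called at that size, 9.7% higher and 12.8% lower. The members' median log2 fold change was −0.059, against 0.0041 for all tested genes, and their median absolute log2 fold change was 0.173, against 0.261. Among genes at a mean of 10 CPM or more, the median absolute value was 0.142 for members, against 0.204 for all. Of these members 46.9% were called, against 53.6%, and 12.2% at 1.5-fold or more, against 16.3%. For 22 members (43.1%) all YAP5SA libraries lay above or all lay below the controls, against 45.7% of all tested genes. Summed over all 52 members, the level was 12570 to 13080 CPM in YAP5SA libraries and 12610 to 13460 CPM in controls, ranges that overlap. Translocation and signal peptide genes summed to 2354 to 2469 CPM in YAP5SA and 2504 to 2727 CPM in control libraries. Degradation genes summed to 125.6 to 130.5 CPM in YAP5SA and 182.1 to 202.1 CPM in controls. Stress sensors and their factors summed to 465.6 to 496.9 CPM in YAP5SA and 397.4 to 446.5 CPM in controls. The sums of the other roles overlapped. The untested member was Sec31b, the minor form of a COPII outer coat protein, at 0.54 ± 0.36 CPM in YAP5SA and 0.22 ± 0.21 CPM in control organoids (SD, n = 4 each). Without control 4, the number of members called higher was 12 and the number called lower 20. With scaling by library size alone, 9 members were called higher and 17 lower.

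**Figure D1:**
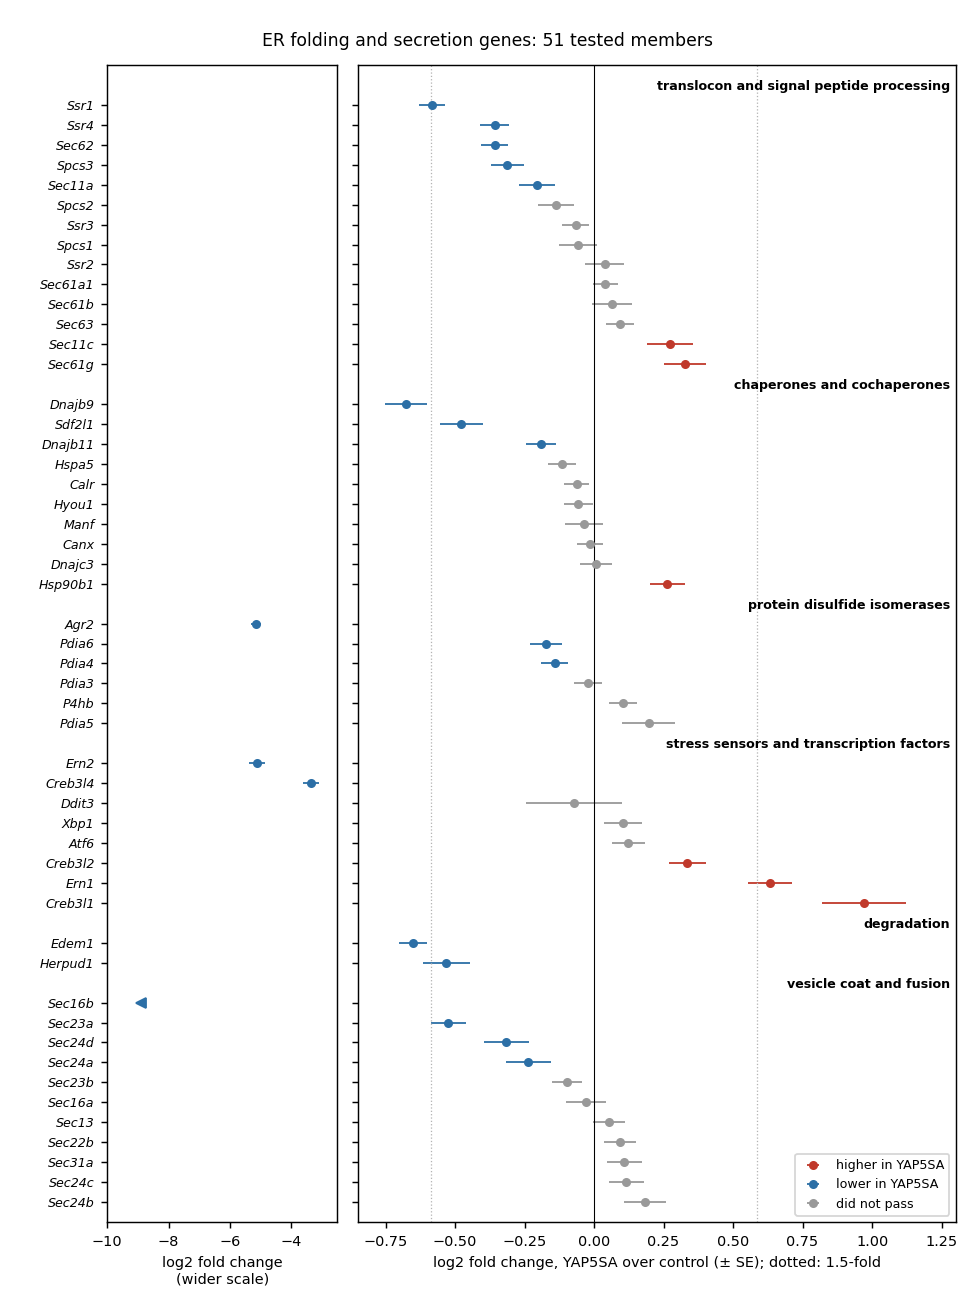
Log2 fold change, YAP5SA over control, for the 51 tested members in groups by role (points, with bars of ± SE, from 4 libraries a group). The left panel has a wider scale, and the triangle of Sec16b marks a bound from a floor of 3 counts. Most points lie between the dotted lines at 1.5-fold, and Sec16b, Agr2, Ern2 and Creb3l4 stand in the left panel.

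The translocation and signal peptide genes showed small changes in both directions. Of 14 genes, 2 rose and 5 fell, none of them by 1.5-fold, and 7 were not called. Over all tested genes, 23.6% were called higher and 25.5% lower. Sec61a1, which encodes the pore-forming subunit of the channel, had 240.0, 243.4, 251.1 and 236.3 CPM in YAP5SA libraries, against 239.4, 227.1, 237.0 and 240.5 CPM in controls. The groups overlapped, and the log2 fold change of 0.04 had a 95% interval of −0.06 to 0.14. The small channel subunit gene Sec61g rose 1.25-fold (53.9 ± 3.0 CPM in YAP5SA and 42.8 ± 4.4 CPM in control organoids), while Sec61b was not called (log2 fold change 0.07). Of the partners of the channel in post-translational import, Sec62 fell by 0.36 on the log2 scale and Sec63, which brings Hspa5 to the channel, did not pass (0.09).

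The 4 genes of the TRAP complex, which sits beside the channel and assists the entry of some signal peptides, did not move together. Ssr1, its alpha subunit, showed the largest change of the translocation genes and lay just below 1.5-fold, with 173.6 ± 5.0 CPM in YAP5SA organoids and 260.1 ± 7.0 CPM in controls (log2 fold change −0.58 ± 0.05 SE, adjusted p = 9.3e-09, edgeR). Ssr4, the delta subunit, fell by 0.36 on the log2 scale. Ssr4 is X-linked, the only X-linked member. Ssr2 and Ssr3 were not called, at 0.04 and −0.07 on the same scale. Among the subunits of signal peptidase, the catalytic paralogues moved in opposite directions, Sec11a falling by 0.20 and Sec11c rising by 0.27 on the log2 scale. Spcs3, a noncatalytic subunit, fell by 0.31, and Spcs1 and Spcs2 did not pass (−0.06 and −0.14). Sec11a lost its call without YAP5SA 3 (adjusted p = 0.0507, edgeR).

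The major chaperones were abundant in both groups, and none of them differed by 1.5-fold. Of 10 chaperone and cochaperone genes, 1 rose, 3 fell and 6 were not called, against 23.6% of all tested genes higher and 25.5% lower. Hspa5, which encodes BiP, the ER member of the HSP70 family and the regulator of all 3 stress sensors, had 1216, 1247, 1222 and 1307 CPM in YAP5SA libraries, against 1402, 1343, 1398 and 1267 CPM in controls. The groups overlapped through YAP5SA 4 and control 4, and the difference was not called (log2 fold change −0.12 ± 0.05 SE, adjusted p = 0.0673, edgeR). It passed without control 4 (adjusted p = 0.00483, edgeR) and with DESeq2 (adjusted p = 0.0379). Hsp90b1, the ER member of the HSP90 family, had 1699, 1789.9, 1747 and 1778 CPM in YAP5SA libraries, against 1607, 1449, 1521 and 1265 CPM in controls. All YAP5SA libraries lay above all controls, and the gene rose 1.20-fold (log2 fold change 0.26 ± 0.06 SE, adjusted p = 0.00200, edgeR).

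The lectin chaperones Calr and Canx, which hold glycoproteins in the folding cycle, did not pass the test. Calr had 1271, 1324, 1294 and 1284 CPM in YAP5SA libraries, against 1377, 1319.8, 1344 and 1361 CPM in controls, with overlap between YAP5SA 2 and control 2. Canx had a log2 fold change of −0.01 with a 95% interval of −0.11 to 0.08. The nucleotide exchange factor gene Hyou1, the cochaperone gene Dnajc3 and Manf, which encodes a secreted factor that binds BiP, did not pass either, with log2 fold changes between −0.06 and 0.01.

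The members of this group that fell were cochaperones of BiP. Dnajb9 (ERdj4), which restrains IRE1 and assists degradation, had 20.8, 23.7, 20.8 and 23.4 CPM in YAP5SA libraries, against 35.0, 36.2, 36.4 and 34.2 CPM in controls. The groups lay well apart (log2 fold change −0.68 ± 0.08 SE, adjusted p = 6.94e-07, edgeR). Sdf2l1 and Dnajb11 (ERdj3), which act together with BiP on nascent proteins, were lower in YAP5SA organoids too, with log2 fold changes of −0.48 and −0.19. The ratio of cochaperone to BiP messages was not tested.

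**Figure D2:**
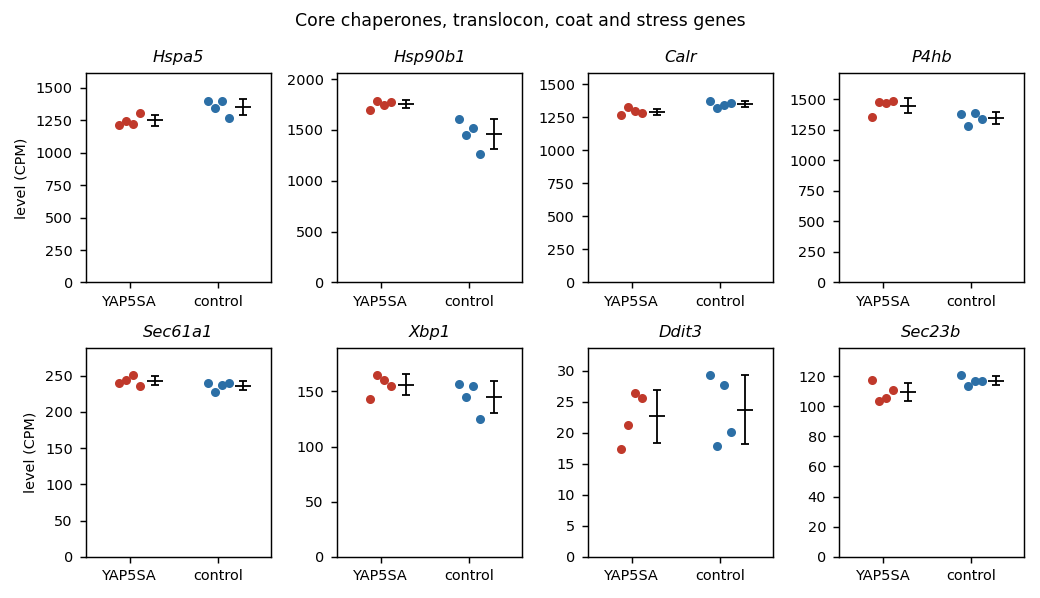
Level in CPM of 8 core members in each library (points), with the mean and SD of 4 libraries beside them, on axes that start at 0. The groups overlap in every panel except that of Hsp90b1, where the YAP5SA libraries lie above the controls.

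The promoters of several chaperone genes hold the ER stress response element (ERSE), which ATF6 binds together with NF-Y, and its sites are shown because these genes are classical targets of the stress response. The RefSeq promoter windows of GRCm38.p6 (250 bases before to 50 after the start) matched 43 of the 52 members by symbol. The letters CCAAT, 9 bases of any kind and CCACG were found on either strand in the windows of 6 member genes, and in 0.119% of all 32851 promoter windows. The sites are printed along the strand of the element, with the fixed letters in capitals, and Hsp90b1 has a pair of them.
Hspa5 (chr2:34772025-34772043): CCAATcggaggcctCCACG
Calr (chr8:84847075-84847093): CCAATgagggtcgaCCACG
Hsp90b1 (chr10:86705638-86705656): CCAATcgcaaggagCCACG
Hsp90b1 (chr10:86705533-86705551): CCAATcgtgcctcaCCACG
Canx (chr11:50325800-50325818): CCAATcaccacgctCCACG
Pdia6 (chr12:17266491-17266509): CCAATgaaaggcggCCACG
Dnajc3 (chr14:118937827-118937845): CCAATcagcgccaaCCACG
Of these 6 genes 1 rose, 1 fell and 4 were not called, with log2 fold changes between −0.17 and 0.26. The variant ERSE-II, in which ATTGG and CCACG are 1 base apart, was found in the windows of Herpud1 and Dnajb11, and in 0.0365% of all windows. Both genes fell (log2 fold changes −0.53 and −0.19), where 23.6% of all tested genes were called higher and 25.5% lower.
Herpud1 (chr8:94386377-94386387): ATTGGgCCACG
The 250 bases before the start of Hspa5 (chr2:34771840-34772089, plus strand) and Hsp90b1 (chr10:86705445-86705694, minus strand) are given in full, each 5′ to 3′ along the gene, with the fixed letters of the ERSE in capitals. The downstream ERSE of Hsp90b1 runs against the gene and is read there as its reverse complement.
Hspa5: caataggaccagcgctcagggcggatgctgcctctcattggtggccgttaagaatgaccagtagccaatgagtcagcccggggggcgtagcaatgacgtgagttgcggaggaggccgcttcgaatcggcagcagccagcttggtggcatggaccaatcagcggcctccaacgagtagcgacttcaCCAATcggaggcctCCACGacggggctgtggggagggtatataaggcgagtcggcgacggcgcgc
Hsp90b1: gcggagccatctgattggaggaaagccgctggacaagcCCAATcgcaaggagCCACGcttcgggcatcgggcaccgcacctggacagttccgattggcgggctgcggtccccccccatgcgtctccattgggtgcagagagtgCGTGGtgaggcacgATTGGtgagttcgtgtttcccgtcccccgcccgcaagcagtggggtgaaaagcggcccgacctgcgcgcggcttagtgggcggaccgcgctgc

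Among the disulfide isomerases, which form and rearrange disulfide bonds, Agr2 was the exception to small differences. Of 6 genes none rose, 3 fell and 3 were not called, where 23.6% of all tested genes were called higher and 25.5% lower. Agr2, a small isomerase of mucus-producing epithelia that mouse intestine needs to make its gel-forming mucin, had 1.10, 1.05, 1.48 and 0.88 CPM in YAP5SA libraries, against 48.0, 42.3, 36.9 and 33.2 CPM in controls. The groups did not overlap, and Agr2 was 35.6-fold lower in YAP5SA organoids (log2 fold change −5.15 ± 0.16 SE, adjusted p = 1.95e-14, edgeR). Of the 10 tested chief and mucous cell markers, 9 fell with it, and with Ern2, Creb3l4 and Sec16b described next, while Muc5ac was not called. The part of these cells in the results was not tested. In bulk organoids, fewer cells of a type and less RNA per cell cannot be told apart.

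The general isomerases stood at a much higher level and changed little. P4hb, the classical protein disulfide isomerase, had 1353, 1481, 1469 and 1489 CPM in YAP5SA libraries, against 1378, 1283, 1384 and 1341 CPM in controls. The groups overlapped through YAP5SA 1, and the gene was not called (log2 fold change 0.11 ± 0.05 SE, adjusted p = 0.0961, edgeR). Pdia3, the partner of the lectin chaperones, had 1071 ± 25 CPM in YAP5SA and 1088 ± 62 CPM in control organoids. Pdia4 and Pdia6 fell (log2 fold changes −0.14 and −0.17), and Pdia5 did not pass (0.20). The calls of Pdia4 and Pdia6 were lost with scaling by library size alone (adjusted p = 0.0719 and 0.0595, edgeR) and without YAP5SA 1 (adjusted p = 0.0839 and 0.0645, edgeR). Pdia4 also lost its call without YAP5SA 4 (adjusted p = 0.0531, edgeR), and Pdia6 without control 1 (adjusted p = 0.0849, edgeR). Per kilobase of exon, Agr2 stood at 0.87 CPM per kb in YAP5SA organoids and 31.0 CPM per kb in controls, whereas P4hb, the highest member in both groups, stood at 506.1 CPM per kb in YAP5SA organoids and 470.6 CPM per kb in controls. Calr was next in both, at 449.1 CPM per kb in YAP5SA organoids and 468.9 CPM per kb in controls, where it was within the spread of P4hb.

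**Figure D3:**
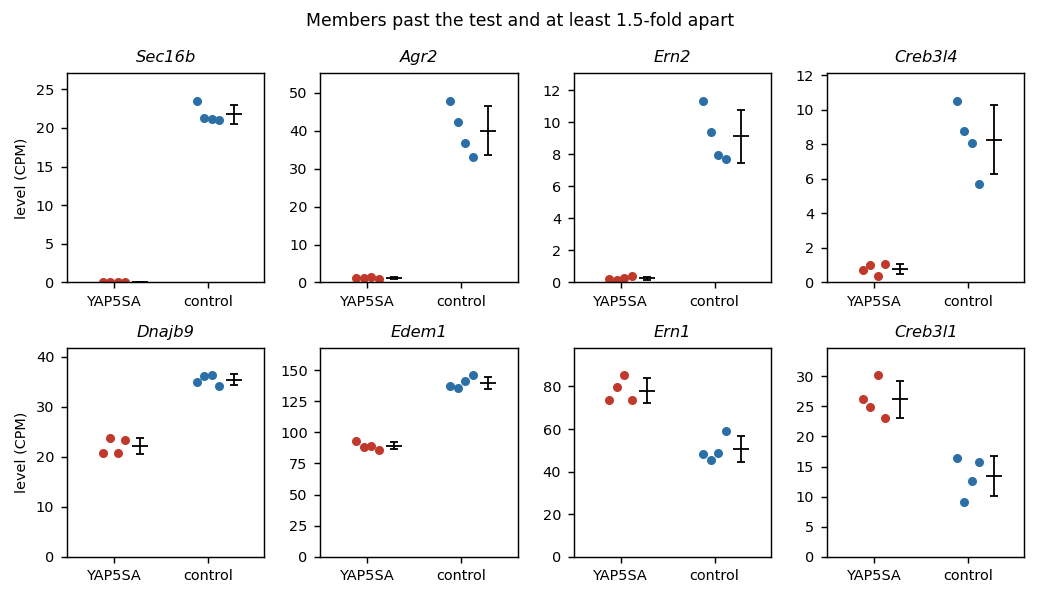
Level in CPM in each library (points) of the 8 members that passed the test with a difference of at least 1.5-fold, with the mean and SD of 4 libraries beside them, on axes that start at 0. In all 8 panels the groups lie apart, with Ern1 and Creb3l1 higher in YAP5SA and the other 6 genes lower.

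Among the stress sensors and their transcription factors, Ern1 rose while Ern2 fell, and Creb3l1 and Creb3l2 rose while Creb3l4 fell. Of 8 genes, 3 rose, 2 fell and 3 were not called, where 23.6% of all tested genes were called higher and 25.5% lower. Ern2 encodes IRE1 beta, the form of the IRE1 sensor found in mucous epithelia of gut and airway. It had 0.19, 0.17, 0.26 and 0.41 CPM in YAP5SA libraries, against 11.4, 9.42, 7.99 and 7.73 CPM in controls. With 17 counts over the YAP5SA libraries and 614 over the controls, it was 34.5-fold lower in YAP5SA organoids (log2 fold change −5.11 ± 0.26 SE, adjusted p = 2.05e-11, edgeR). Ern1 encodes IRE1 alpha, the form found in most cells. It had 73.5, 79.6, 85.5 and 73.4 CPM in YAP5SA libraries, against 48.5, 45.3, 48.9 and 59.3 CPM in controls. The lowest YAP5SA library lay above the highest control, control 4 (log2 fold change 0.63 ± 0.08 SE, adjusted p = 2.88e-06, edgeR). Of the summed level of the pair per kilobase of exon, Ern2 made up 0.571% to 1.52% in YAP5SA libraries and 26.4% to 39.3% in controls.

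Xbp1, whose message IRE1 splices to give an active transcription factor, did not follow either gene. It had 143.2, 165.1, 160.9 and 155.3 CPM in YAP5SA libraries, against 156.4, 144.8, 155.0 and 124.8 CPM in controls. The groups overlapped (log2 fold change 0.10 ± 0.07 SE, 95% interval −0.04 to 0.25, adjusted p = 0.228, edgeR), and gene counts do not show splicing of the message. Atf6, the sensor that is cut in the Golgi to release a transcription factor, did not pass (log2 fold change 0.12, 95% interval −0.001 to 0.25). It did without control 4 and with scaling by library size alone (adjusted p = 0.0118 and 0.0393, edgeR). Ddit3, which encodes CHOP, the factor tied to cell death under lasting ER stress, had 17.3, 21.2, 26.4 and 25.6 CPM in YAP5SA libraries, against 29.4, 17.9, 27.6 and 20.2 CPM in controls. The groups overlapped, and the 95% interval of its log2 fold change, −0.45 to 0.31, was wide.

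The CREB3-like factors are membrane-bound transcription factors activated by cutting in the Golgi, in the manner of ATF6. Creb3l1 (OASIS), known in mouse bone for the secretion of collagen, had 26.3, 25.0, 30.3 and 23.1 CPM in YAP5SA libraries, against 16.4, 9.04, 12.6 and 15.8 CPM in controls. It was the member with the largest rise, 1.96-fold, and the groups did not overlap (log2 fold change 0.97 ± 0.15 SE, adjusted p = 7.74e-05, edgeR). Creb3l2 rose 1.26-fold, with 74.3 ± 2.7 CPM in YAP5SA and 59.1 ± 5.2 CPM in control organoids. Creb3l4 had 0.71, 0.99, 0.39 and 1.06 CPM in YAP5SA libraries, against 10.5, 8.77, 8.09 and 5.70 CPM in controls. It was 10.3-fold lower in YAP5SA organoids, without overlap (log2 fold change −3.37 ± 0.26 SE, adjusted p = 5.1e-09, edgeR).

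Both genes of ER-associated degradation fell, where 25.5% of all tested genes were called lower. Edem1, a lectin-like protein that directs misfolded glycoproteins to degradation, had 92.8, 88.2, 89.2 and 86.0 CPM in YAP5SA libraries, against 137.0, 135.3, 141.4 and 146.3 CPM in controls. The groups lay apart (log2 fold change −0.65 ± 0.05 SE, adjusted p = 7.31e-09, edgeR). Herpud1, a membrane protein that organizes the degradation complex, stood at 38.5 ± 3.2 CPM in YAP5SA and 55.6 ± 6.4 CPM in control organoids (log2 fold change −0.53 ± 0.09 SE, adjusted p = 5.02e-05, edgeR).

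In the vesicle coat, 1 gene had no counts in YAP5SA organoids and most others were close between the groups. Of 11 tested genes of the COPII coat and vesicle fusion, none rose, 4 fell and 7 were not called. Over all tested genes, 23.6% were called higher and 25.5% lower. Sec16b, the shorter paralogue of the protein that marks ER exit sites, had 0 counts in all 4 YAP5SA libraries, against 23.6, 21.3, 21.2 and 21.0 CPM in controls, 1462 counts in all. Against a floor of 3 counts over the YAP5SA libraries it was at least 479-fold lower in YAP5SA organoids (adjusted p = 2.36e-13, edgeR), a limit that covers counting error only. Sec16a, the longer paralogue, was not called, with 122.2 ± 2.0 CPM in YAP5SA and 124.8 ± 16.6 CPM in control organoids. Per kilobase of exon, Sec16b made up 19.2% to 25.6% of the pair in controls.

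The Sec23 and Sec24 proteins form the inner coat, in which Sec24 binds the cargo. Sec23b had 117.6, 103.7, 105.4 and 110.8 CPM in YAP5SA libraries, against 120.8, 113.4, 117.0 and 116.8 CPM in controls. These values overlapped and the gene did not pass (log2 fold change −0.10 ± 0.05 SE, adjusted p = 0.152, edgeR). Sec23a fell by 0.52 on the log2 scale (44.4 ± 2.4 CPM in YAP5SA and 63.8 ± 3.1 CPM in control organoids), and its share of the pair per kilobase was 31.3% to 36.2% in YAP5SA libraries and 39.9% to 42.2% in controls. Sec24a and Sec24d fell (log2 fold changes −0.24 and −0.32), whereas Sec24b and Sec24c did not pass, with log2 fold changes of 0.18 and 0.12. Without control 4, Sec24a lost its call (adjusted p = 0.0546, edgeR), and Sec24b and Sec24c were called higher (adjusted p = 0.000564 and 0.00238, edgeR). Sec24c held the largest share of the 4 paralogues in both groups, 57% to 59.9% in YAP5SA libraries and 54.1% to 55.9% in controls. The outer coat genes Sec13 and Sec31a and the fusion protein gene Sec22b were not called, with log2 fold changes between 0.05 and 0.11, and Sec31a was called higher without control 4 (adjusted p = 0.0031, edgeR).

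**Figure D4:**
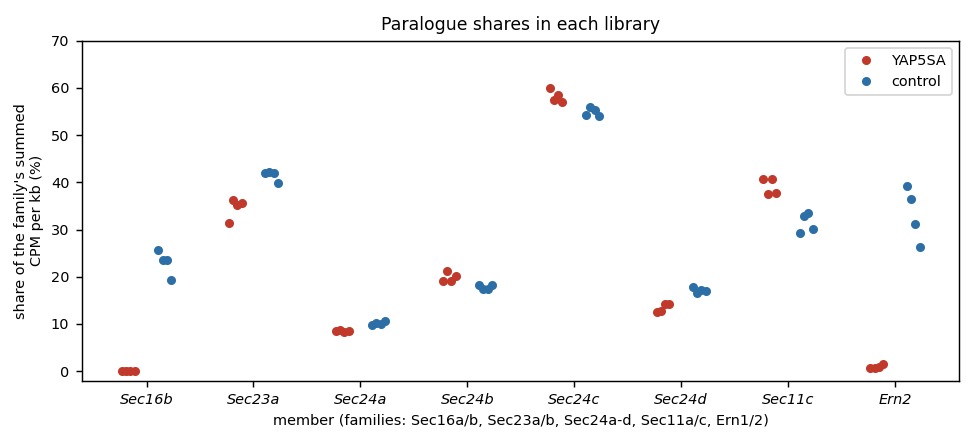
Share of each of 8 paralogues in the summed CPM per kilobase of its family, in percent, for each library (points). Sec16b and Ern2 are at or near 0 in YAP5SA libraries, and the shares of the other 6 paralogues plotted differ by less, without overlap between the groups.

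The upstream sequence of Sec16b is shown as that of the member with the largest fall, and because it holds the letters TGACGTGG, the unfolded protein response element (UPRE) bound by XBP1 and ATF6. This sequence lies in 1 of the RefSeq windows of Sec16b (chr1:157506546-157506795, plus strand, GRCm38.p6, 250 bases before the start), and the element is in capitals.
Sec16b: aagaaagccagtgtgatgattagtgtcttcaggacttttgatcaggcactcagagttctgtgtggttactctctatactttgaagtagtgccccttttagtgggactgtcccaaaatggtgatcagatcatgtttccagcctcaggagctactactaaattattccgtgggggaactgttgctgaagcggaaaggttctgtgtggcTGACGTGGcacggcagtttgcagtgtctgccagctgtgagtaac
The same letters were found, on either strand, in the windows of 3 members, Sec16b, Sec23a and Sec24d, and in 0.676% of all windows. All 3 genes fell, where 25.5% of all tested genes were called lower, and 3 genes are too few to compare with that share. The letters GGAATG, the core recognized by the TEAD partners of YAP, were found in the windows of 8 members and in 14.7% of all windows. Of these 8 genes, 3 rose (Ern1, Creb3l2 and Sec61g), 2 fell (Sec62 and Pdia6) and 3 were not called. Among all tested genes 23.6% were called higher and 25.5% lower. The letters TGACGTCA of the cyclic AMP response element were in none of the members' windows and in 1.79% of all windows. Such matches describe the letters of these windows and show no binding.

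Other genes of these pathways were taken from lists that hold no member. Of 133 tested genes in 7 lists, 11 rose, 47 fell and 75 were not called, where 23.6% of all tested genes were called higher and 25.5% lower. Their median log2 fold change was −0.069, against 0.0041 for all tested genes. None of the 11 that rose reached 1.5-fold, and 10 of those that fell did, where 9.7% of all tested genes were called higher and 12.8% lower at that size. Of 23 degradation genes, 2 rose and 7 fell. The largest falls there were in Edem3 and Edem2, the paralogues of Edem1, with 138.4 ± 6.6 CPM in YAP5SA and 300.4 ± 12.6 CPM in control organoids for Edem3 and 45.5 ± 2.6 CPM in YAP5SA and 98.6 ± 8.6 CPM in control organoids for Edem2. Their log2 fold changes were −1.12 ± 0.05 SE and −1.11 ± 0.07 SE (adjusted p = 4.23e-12 and 2.86e-10, edgeR). All 3 Edem genes were called lower, where 25.5% of all tested genes were, and 3 genes are too few to compare with that share.

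Of 33 other folding enzymes, 7 rose and 13 fell, where 23.6% of all tested genes were called higher and 25.5% lower. The lowest log2 fold changes were those of Uggt2, a relative of the glucosyltransferase that senses unfolded glycoproteins (−1.83 ± 0.12 SE), the sulfhydryl oxidase gene Qsox1 (−1.54 ± 0.07 SE) and the prolyl isomerase gene Fkbp11 (−1.26 ± 0.38 SE), the last at only 1.27 ± 0.85 CPM in YAP5SA and 3.04 ± 0.79 CPM in control organoids. For Fkbp11 the groups overlapped, with YAP5SA 1 at 2.27 CPM and control 4 at 2.25 CPM. Of 13 genes of the oligosaccharyltransferase and its partners, which attach N-glycans, 1 rose and 2 fell. Mlec, a lectin for newly attached glycans, fell by 0.74 on the log2 scale. Of 10 genes of the signal recognition particle and its receptor, none rose and 4 fell, with the smallest adjusted p for Srp14 (log2 fold change −0.38, adjusted p = 0.000102, edgeR).

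Of 11 other genes of stress sensing, none rose and 6 fell, where 23.6% of all tested genes were called higher and 25.5% lower. Eif2ak3, which encodes PERK, fell by 0.33 on the log2 scale (adjusted p = 0.0031, edgeR). Creb3 and Atf6b, relatives of the CREB3-like factors and of Atf6, fell by 0.55 and 0.21. Bhlha15 (MIST1), a transcription factor of chief cells and other zymogen-secreting cells, had 0.16 ± 0.23 CPM in YAP5SA and 25.4 ± 11.8 CPM in control organoids (log2 fold change −7.20 ± 0.72 SE, adjusted p = 9.13e-05, edgeR). Trib3, a pseudokinase induced by CHOP and ATF4, fell by 0.83 on the log2 scale. It had 4.85 ± 1.76 CPM in YAP5SA and 8.62 ± 1.12 CPM in control organoids. Its groups overlapped, with YAP5SA 4 at 7.42 CPM and control 2 at 7.20 CPM. Of 32 genes of vesicle budding, cargo receptors and retrieval, 1 rose and 13 fell, with the lowest value for Mia3 (TANGO1), which loads large cargo such as collagen into vesicles (log2 fold change −0.60). The COPI coat of retrograde vesicles had the fewest calls of the 7 lists, with 2 of 11 genes lower and none higher. Copz1 had the smallest adjusted p (log2 fold change −0.19, adjusted p = 0.00341, edgeR).

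**Figure D5:**
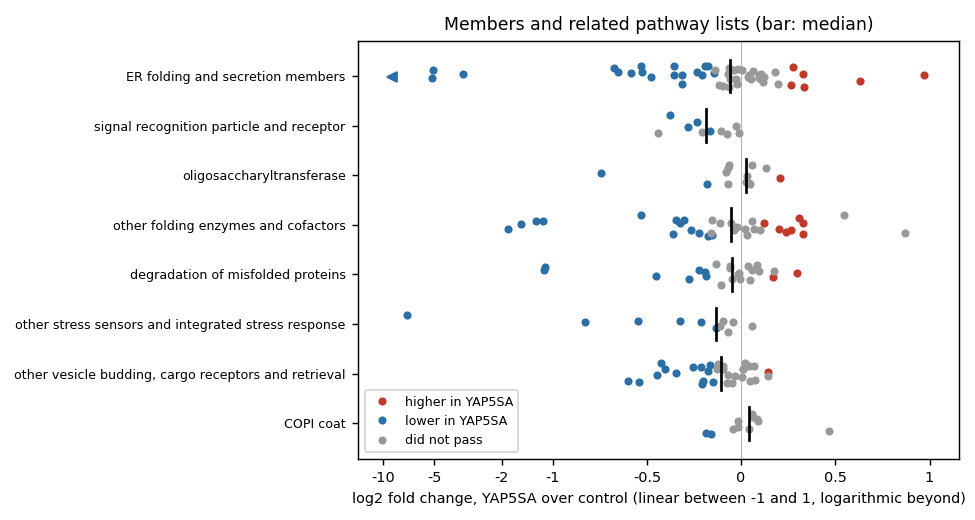
Log2 fold change, YAP5SA over control, of each tested member and of each tested gene of 7 related lists (points, spread vertically at random; bars mark medians). The axis is linear between −1 and 1 and logarithmic beyond, and the triangle of Sec16b marks a bound. Medians lie near 0, and the far points on the left are Sec16b, Agr2, Ern2, Creb3l4 and Bhlha15.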

How the data were processed

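RNA of 8 organoid libraries was analysed from the deposited raw read counts per gene, whole numbers that the authors did not normalize. Build mm9 and the tools cutadapt, HISAT2 2.0.1 and HTSeq 0.6.1 are named in the submitters' processing notes. For strand handling and annotation release, nothing is given in the sources used here. Rows without a gene name (2639, 0.19% to 0.221% of counts) were left out, and rows sharing a symbol were summed. Genes passing filterByExpr (14058) were scaled by TMM. Genotype was the only term of edgeR's robust quasi-likelihood fit and F test (edgeR 4.0.16, R 4.3.3), with Benjamini-Hochberg adjustment over all tested genes and calls at an adjusted p under 0.05. A standard error is the log2 fold change over the root of its F value. DESeq2 1.42.0, other scalings, no filter, a threshold of 0.01, a replicate block and leaving out each library were alternatives. Floors and intervals of counts cover counting error only.

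The members and lists were chosen with earlier results of these data known. Values in every library are given for called members with at least a 1.5-fold difference and for Hspa5, Hsp90b1, Xbp1, Sec61a1, Calr, P4hb, Agr2, Ern1, Ern2, Ddit3 and Sec23b. Of each related list the text names up to 3 called genes of that size in each direction, and otherwise the 1 with the smallest adjusted p. Eif2ak3, Creb3 and Atf6b are named besides, as a stress sensor and relatives of members. Hm13 of the degradation list is in the table under the symbol H13. Exon lengths and chromosomes come from GENCODE M21 by symbol, whose build is not that of the counts, so levels per kilobase are approximate. Exons of 17 members overlap another gene there, by at most 549 bases (Sec61a1; 415 for Hsp90b1), and such reads cannot be told apart without strand. Counts of any pair of libraries of a group differed by 3.78 to 33.8 times the variance expected from sampling, so none was a repeat deposit. The test was checked on simulated counts. It recovered 70.4% of genes changed by 1.5-fold, 86.2% at 2-fold and 98.4% at 4-fold, with 10 false calls.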

Additional observations from a re-analysis of the deposited data

Results flagged for a closer look

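In 10 of 102 combinations of a tested member and a group (9.8%), 1 library stood apart from the other 3 by Dixon's criterion. Chance gives about 5%, but the combinations share the same 8 libraries and are not independent. Sec16b in YAP5SA, with 0 counts in every library, could not be flagged. Among the YAP5SA libraries, YAP5SA 4 was high for Sec61g (58.3 CPM, against 52.2 to 52.8 in the others) and Spcs3 (182.5 CPM, against 168.8 to 171.1). YAP5SA 1 was high for Hyou1 (188.4 CPM, against 181.3 to 182.2) and Sec24a (49.1 CPM, against 46.9 to 47.2) and low for P4hb (1353 CPM, against 1469 to 1489). YAP5SA 3 was low for Canx (864.5 CPM, against 886.1 to 890.3), and YAP5SA 2 was low for Manf (101.7 CPM, against 107.3 to 107.8). Among the controls, control 4 was high for Sec16a (149.7 CPM, against 116.4 to 116.8) and Sec24a (67.5 CPM, against 51.5 to 53.55), and control 1 was high for Sec16b (23.6 CPM, against 21.0 to 21.3).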

How the results depend on the processing

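The number of members called higher was between 6 and 12 when 1 library was left out, and 12 without control 4, while the number called lower was between 17 and 20. The number of genes of the related lists called higher was 8 to 13 when 1 library was left out and 7 at a threshold of 0.01. Called members kept their direction under every alternative run. Scaling by library size alone ended 2 calls of members and added 3, moved the median of all tested genes to 0.0326, and left 9 members higher and 17 lower. No filter on low counts ended 1 call and added 2, DESeq2 added 1, and a threshold of 0.01 ended 5, those of Pdia4, Pdia6, Sec11a, Sec11c and Sec24a. Without control 4, 8 members were called that did not pass with all libraries (Atf6, Hspa5, P4hb, Sec24b, Sec24c, Sec31a, Sec63 and Spcs2). The cause was not tested. The replicate block left 6 members called higher and 19 lower. Whether libraries with the same number share an origin is not in the labels. Their deviations from the group means correlated by −0.193, −0.102, 0.0289 and −0.0364, against −0.321 to 0.213 for pairs with unlike numbers. In 0 of 8 libraries was the highest correlation with the library of the same number. A shared origin or batch was not tested beyond this. Genes with few counts in a group, such as Ern2 and Creb3l4 in YAP5SA, have the widest errors among the large changes.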
